A study of Mus musculus with 6 samples.

Results

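The transforming growth factor beta (TGF-beta), activin and bone morphogenetic protein (BMP) pathways were examined through 50 genes that cover ligands, antagonists, receptors, SMAD proteins, regulators and target genes. A row of the value table belonged to one of these genes when the platform annotation named that gene alone, which gave 613 of 241576 rows and 50 of 20848 genes. All 50 genes had at least 1 row, and no filter on low values was applied. The genes were divided by textbook role into 24 of the TGF-beta/activin branch, 19 of the BMP branch and 7 that serve both.

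The samples were 3 arrays of total RNA from 4TO7 cells transduced with pcDNA, the vector control, and 3 arrays from 4TO7 cells transduced for Six2 overexpression. The 4TO7 line comes from a mouse mammary tumour. The homeobox transcription factor Six2 is best known from the developing kidney. The labels do not say whether either cell population was a clone or a pool, give no species or extent of the Six2 insert, and do not say that replicates came from separate cultures. The spread that p-values measure may therefore be technical.

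Ligands of this superfamily bind pairs of type I and type II receptor kinases, which phosphorylate receptor SMADs that enter the nucleus with the common partner SMAD4. TGF-beta and activin act mainly through SMAD2 and SMAD3, and BMPs through SMAD1, SMAD5 and SMAD9. In mammary epithelium and its tumours, TGF-beta is known for restraining growth and for promoting loss of epithelial character, and the ID genes are classical targets of BMP signalling. Transcript levels of these genes do not measure the phosphorylation of SMADs, and no protein was measured here.

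Values are log2 RMA values, and a gene's value is the median of its probe sets. Differences are given in log2 units as Six2 minus control, with the limma standard error (SE). A gene is said to have risen or fallen when its two-sided limma p, adjusted by Benjamini-Hochberg over all 20848 genes, was under 0.05. A gene mean above 6 over the 6 arrays is called well expressed here and a mean of at most 4 dim, since the table carries no detection calls. Levels are not compared between genes, because probe sets differ in brightness for technical reasons.

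Correlations between arrays over all genes were 0.992 to 0.994 within groups and 0.983 to 0.987 between groups. The overexpressed gene was near background. The 4 probe sets of Six2 gave 3.69, 3.25 and 3.62 in control arrays and 3.60, 3.94 and 4.03 in Six2 arrays, so the groups overlapped. Its difference was 0.33 (SE 0.16, limma adjusted p = 0.215; exact two-sided permutation p = 0.3, where 0.1 is the smallest that 3 against 3 arrays allow). The brightest probe set alone gave 1.19, with limma adjusted p = 0.0480 when every gene was given by its brightest probe set. Over all rows its limma adjusted p was 0.0908, so the array gives a weak check of the labels. Cdh1, the gene of E-cadherin that the series title names, was at 7.57 ± 0.11 (SD, n = 3) in control and 4.41 ± 0.17 (SD, n = 3) in Six2 arrays. Of 6 mammary epithelial markers, 5 fell, and their summed level was 47.4 to 47.8 in control and 38.5 to 39.2 in Six2 arrays. They were Cdh1 (-3.16) and the keratin genes Krt7 (-2.27), Krt19 (-1.24), Krt18 (-0.81) and Krt8 (-0.56). Krt8 and Krt18, keratins of mammary luminal cells, stayed well expressed, at 12.3 and 11.7 in control and 11.8 and 10.9 in Six2 arrays. The mesenchymal filament gene Vim was at 12.7 in both groups, and none of 7 mesenchymal or fibroblast markers passed. All 4 endothelial markers were dim, and 1 of 6 leukocyte markers, Cd68, was well expressed. Ptprc and Adgre1, leukocyte genes with control means of 4.41 and 3.59, fell by 0.63 and 0.62. Cd68 (-0.56) and Csf1r (-0.33) were lower, and Itgam (0.20) and Cd3e (0.57) higher, all without passing. The summed level of the 6 leukocyte markers, 4 of them dim, was 25.2 to 26.0 in control and 23.9 to 24.6 in Six2 arrays. The part of these markers, epithelial and leukocyte, in the differences below was not tested.

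Of the 50 genes, 3 rose, 9 fell and 38 did not pass. The 12 changed genes are 24.0% of the list, against 14.7% of all genes. For all genes the shares were 6.70% higher and 8.02% lower. Well expressed genes pass more often, and 11 of the 31 well expressed pathway genes passed, against 24.6% of the 8974 well expressed genes. The 2 branches differed in their counts. In the TGF-beta/activin branch, 1 of 24 rose and 9 fell, and in the BMP branch 2 of 19 rose and 0 fell. None of the 7 shared genes passed at the adjusted threshold, although Smad4, Smad7, Smurf2 and Eng had unadjusted limma p of 0.0145, 0.010, 0.0251 and 0.0365. In the other branches, Fstl3, Ltbp1, Ski and Id1 also had unadjusted limma p under 0.05 without passing (0.0118, 0.0220, 0.0438 and 0.0111). The share of all genes with such unadjusted p is not given here. The median difference was -0.18 in the TGF-beta/activin branch, 0.045 in the BMP branch and -0.05 over all genes. By the cutoffs used here, 18 of 24 TGF-beta/activin genes and 9 of 19 BMP genes were well expressed, and 8 BMP genes were dim. Probe sets differ in brightness for technical reasons, so these counts do not compare transcript amounts between the branches. A difference between the branches was not tested.

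**Figure D1:**
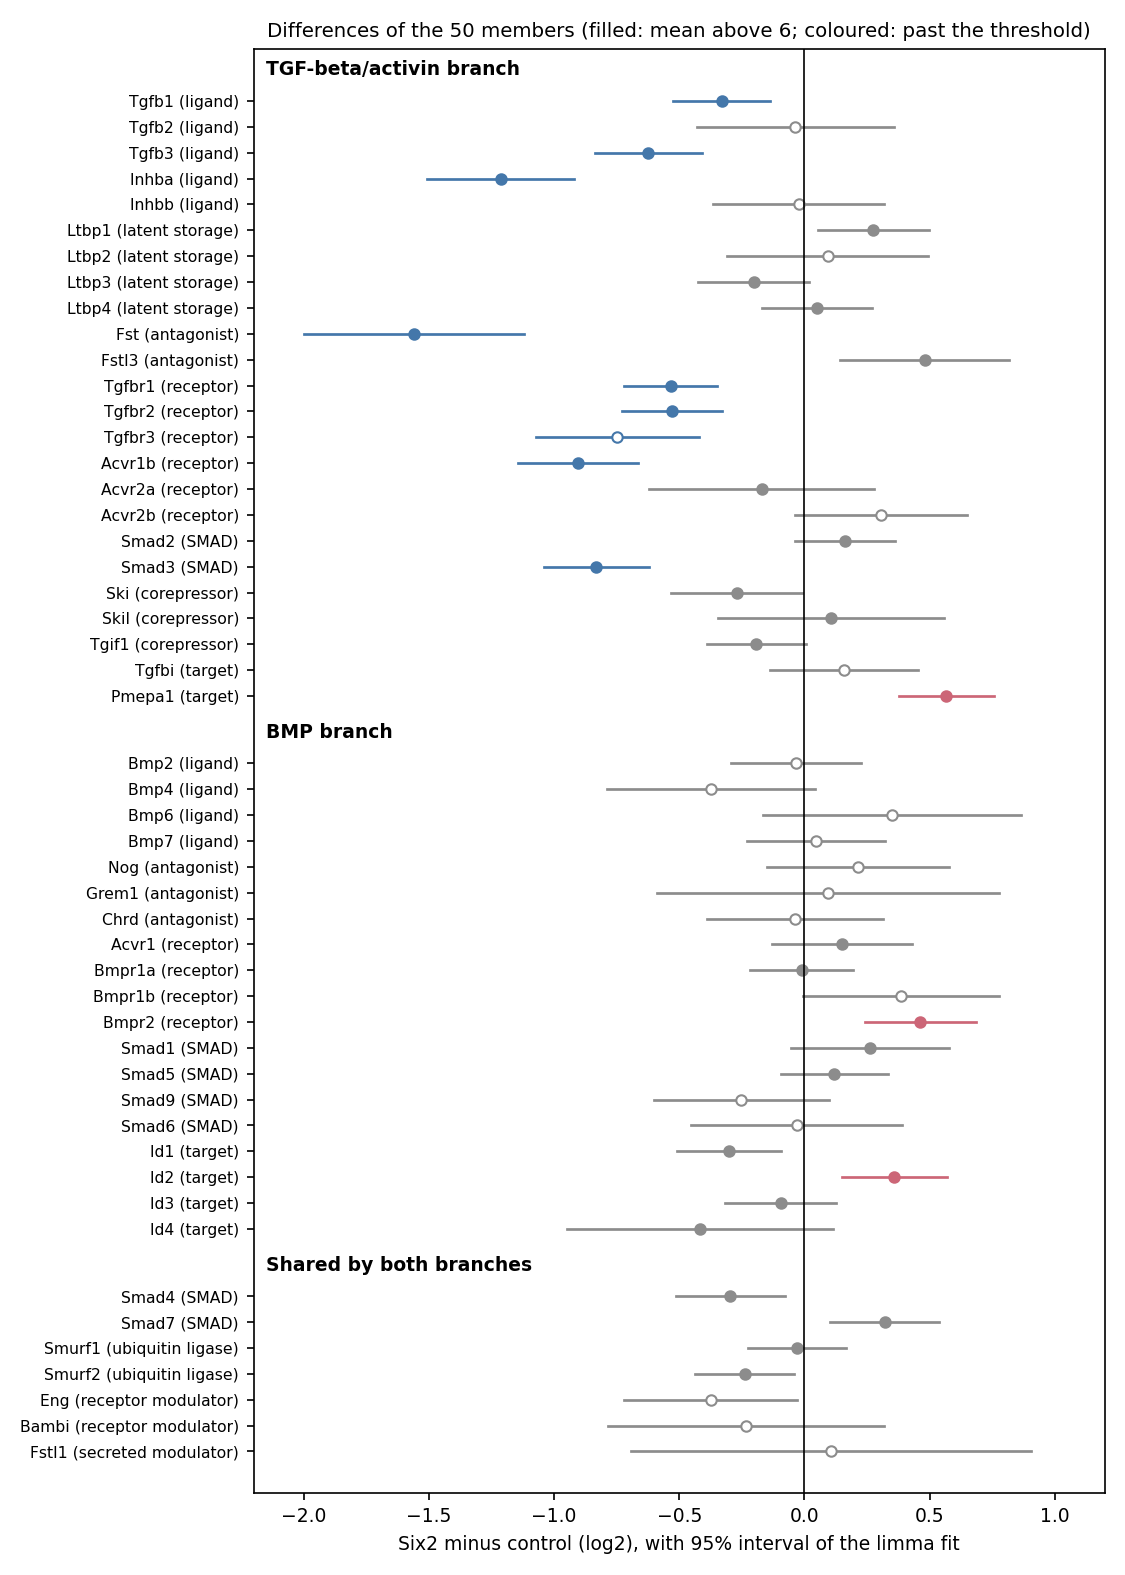
Six2 minus control difference on the log2 scale (x axis) of each of the 50 genes (y axis, with its role), by branch. Points are limma estimates, bars their 95% intervals, filled points genes with a mean above 6, and blue and red points genes that fell or rose. The 9 falls lie in the TGF-beta/activin branch, from -0.33 to -1.56, and the 3 rises lie between 0.36 and 0.57.

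Among the TGF-beta and activin ligands, 3 of 5 fell and 0 rose. Inhba encodes the activin A subunit. It was at 7.51, 7.82 and 7.80 in the control arrays and at 6.63, 6.51 and 6.36 in the Six2 arrays. No Six2 array reached the lowest control array, and the level fell 2.32-fold (-1.21, SE 0.12, limma adjusted p = 0.00182). Inhbb, the gene of the activin B subunit, was dim in both groups at 3.81 and 3.78 and did not pass.

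The TGF-beta ligand Tgfb3 was at 8.43, 8.38 and 8.43 in control arrays and at 7.82, 7.87 and 7.68 in Six2 arrays. The groups were apart, and the fall was 1.54-fold (-0.62, SE 0.09, limma adjusted p = 0.00640). Tgfb1, the gene of the most studied TGF-beta isoform, was at 10.06, 10.14 and 10.07 in control arrays and at 9.75, 9.79 and 9.73 in Six2 arrays. The groups did not overlap, but the fall was small, at 1.26-fold (-0.33, SE 0.08, limma adjusted p = 0.0392). This call was lost when any 1 of the 6 arrays was left out (-0.35 to -0.30, limma adjusted p = 0.0790 to 0.124), with the mean of its probe sets (-0.28, limma adjusted p = 0.0608) and with the brightest of them (-0.28, limma adjusted p = 0.0959). The fall of Tgfb3 was smaller with the mean of its probe sets (-0.40, limma adjusted p = 0.0108). Tgfb2 was dim, at 3.34 and 3.30.

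TGF-beta is secreted in a latent complex tethered to the matrix by latent TGF-beta binding proteins (LTBPs). None of the 4 Ltbp genes passed, and their differences ranged from -0.20 to 0.28. Ltbp1 had means of 8.97 in control and 9.24 in Six2 arrays, a difference of 0.28 (95% interval 0.05 to 0.50, limma adjusted p = 0.0988). Its groups did not overlap, and 28 of its 36 probe sets were positive. All 26 probe sets of Ltbp3 were lower in Six2 arrays, from -0.55 to -0.05, with a gene difference of -0.20 (95% interval -0.43 to 0.02). Ltbp4 was at 8.05 and 8.10, and Ltbp2 at 4.25 and 4.35. Probe sets of a gene share the same RNA and are not replicates.

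Follistatin and its relative FSTL3 bind activin and keep it from its receptors. Fst, which encodes follistatin, had the largest difference of the 50 genes. It was at 6.74, 7.37 and 7.19 in control arrays and at 5.77, 5.51 and 5.34 in Six2 arrays. The lowest control array lay above the highest Six2 array by more than the range within either group, and the fall was 2.95-fold (-1.56, SE 0.19, limma adjusted p = 0.00316). With the brightest of its 5 probe sets the fall was smaller, at -0.92, and it still passed. Fstl3 pointed the other way without passing, at 6.06, 6.56 and 6.43 in control arrays and 6.81, 6.76 and 6.93 in Six2 arrays (0.48, 95% interval 0.14 to 0.82, limma adjusted p = 0.0670). Its groups did not overlap. It passed as higher with the mean of its probe sets (0.30, limma adjusted p = 0.0446) and with a variance trend and robust variance (limma adjusted p = 0.0401). With the median of its chromosome subtracted it was at 0.31 (limma adjusted p = 0.220). The transcripts of activin A and of its antagonist follistatin were thus both lower in Six2 arrays, while that of Fstl3 was not.

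**Figure D2:**
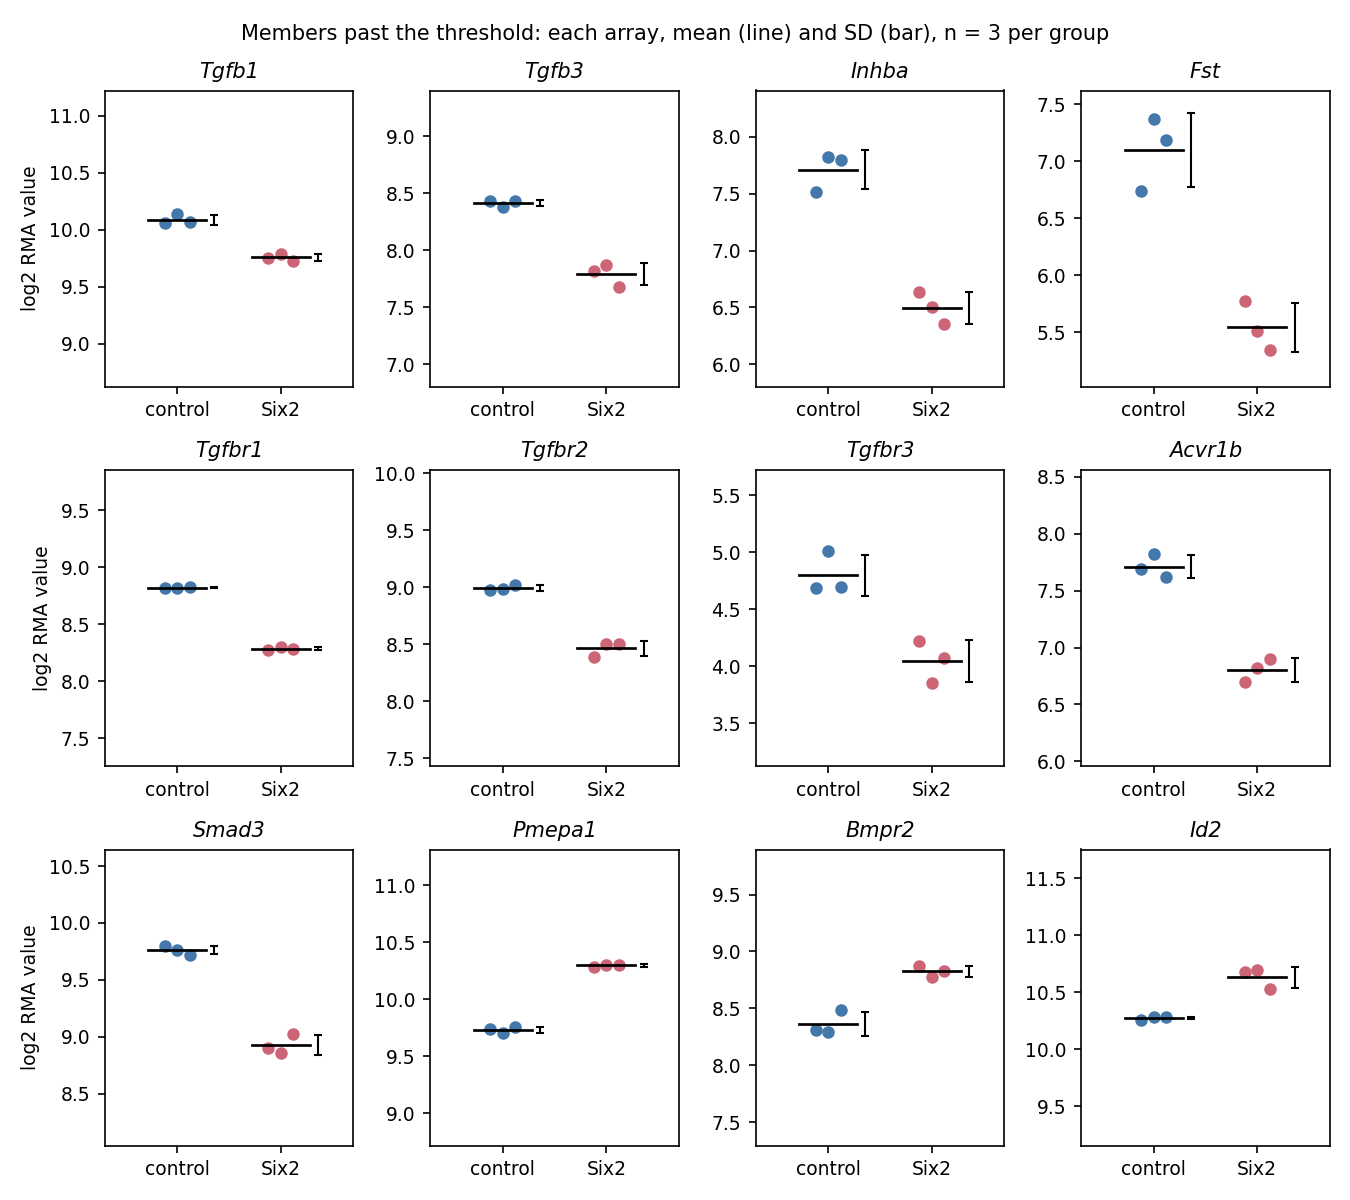
Log2 RMA value (y axis) of the 12 genes that passed, in each array of the control and Six2 groups (x axis). Points are arrays, horizontal lines group means and bars the SD (n = 3), and every panel spans the same log2 range. In all 12 panels the groups do not overlap, and Inhba and Fst differ most, with gaps of over 1 between the group means.

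Of 6 receptor genes of the branch, 4 fell and 0 rose. Tgfbr1, the type I receptor of TGF-beta, was at 8.82, 8.82 and 8.82 in control arrays and at 8.28, 8.30 and 8.28 in Six2 arrays. The arrays of each group lay close together, and the fall was 1.45-fold (-0.53, SE 0.08, limma adjusted p = 0.00684). Tgfbr2, the type II receptor that binds TGF-beta first, was at 8.97, 8.99 and 9.02 in control arrays and at 8.39, 8.50 and 8.50 in Six2 arrays. Its fall was of similar size, at 1.44-fold (-0.53, SE 0.08, limma adjusted p = 0.00865). When the brightest probe set stood for the gene, the call of Tgfbr1 was lost (-0.40, limma adjusted p = 0.0511) and that of Tgfbr2 was kept.

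Acvr1b, which encodes the activin type I receptor ALK4, was at 7.69, 7.82 and 7.62 in control arrays and at 6.69, 6.82 and 6.90 in Six2 arrays. All 9 of its probe sets were lower, and the gene fell 1.87-fold (-0.90, SE 0.10, limma adjusted p = 0.00251). Tgfbr3, the coreceptor betaglycan that presents TGF-beta to the other receptors, was at 4.69, 5.01 and 4.69 in control arrays and at 4.22, 3.85 and 4.08 in Six2 arrays. The groups were apart (-0.75, SE 0.14, limma adjusted p = 0.0139), but only 1 of its 17 probe sets was well expressed, and the call was lost when its brightest probe set stood for the gene (-0.76, limma adjusted p = 0.151) and when dim rows were dropped (-0.52, limma adjusted p = 0.0844). The activin type II receptor genes did not pass. Acvr2a was at 6.96 and 6.79 with overlapping groups (-0.17, 95% interval -0.62 to 0.28), and Acvr2b at 5.46 and 5.77 (0.31, 95% interval -0.04 to 0.65).

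The receptor SMAD genes of the branch did not give the same result. Smad3 was at 9.79, 9.76 and 9.72 in control arrays and at 8.90, 8.86 and 9.03 in Six2 arrays. Its fall of 1.78-fold (-0.83, SE 0.09, limma adjusted p = 0.00212) was well above the spread in either group, and all 13 probe sets were lower, 6 of them past the threshold over all rows. Smad2 was at 8.03, 8.04 and 8.08 in control arrays and at 8.19, 8.16 and 8.28 in Six2 arrays. Its difference was positive and small (0.16, 95% interval -0.04 to 0.36, limma adjusted p = 0.248), and its sign depended on the summary. Of its 16 probe sets 8 were positive and 8 negative, from -1.57 to 0.48, and the gene was at -0.03 with their mean and at -0.26 with the brightest. The difference between Smad2 and Smad3 was not tested.

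The promoters shown are of 4 genes that fell, at the ligand, receptor and SMAD steps, and of 2 BMP branch genes that rose. The genes were picked among those that passed, and others at the same steps, such as Acvr2b and Smad2, did not pass. The 2 rises did not pass with chromosome medians subtracted, as given below. The promoter sequences come from RefSeq (GRCm38.p6), which held 49 promoters of 37 of the 50 genes. Each runs from 250 bases before to 50 after the gene's start, on the gene's strand. Capitals mark the SMAD-type letters CAGAC (or GTCTG), the GC-rich SMAD-type letters GGCGCC and the letters TGATAC (or GTATCA), which occur in binding sites of Six2 and its relatives.
Inhba, chr13:16011601-16011900, plus strand: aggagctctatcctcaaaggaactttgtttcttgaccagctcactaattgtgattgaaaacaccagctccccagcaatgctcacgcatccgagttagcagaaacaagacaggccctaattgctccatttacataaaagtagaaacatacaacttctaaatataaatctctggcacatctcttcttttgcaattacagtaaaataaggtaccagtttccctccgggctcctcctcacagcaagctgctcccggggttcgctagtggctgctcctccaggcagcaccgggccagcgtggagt
Acvr1b, chr15:101173822-101174121, plus strand: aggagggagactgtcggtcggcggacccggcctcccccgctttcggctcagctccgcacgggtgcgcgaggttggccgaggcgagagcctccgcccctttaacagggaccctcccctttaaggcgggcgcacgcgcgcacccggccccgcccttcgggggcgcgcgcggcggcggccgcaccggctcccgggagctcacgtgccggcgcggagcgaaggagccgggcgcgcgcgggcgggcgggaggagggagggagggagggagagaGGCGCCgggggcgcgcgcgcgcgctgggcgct
Smad3, chr9:63757945-63758244, minus strand: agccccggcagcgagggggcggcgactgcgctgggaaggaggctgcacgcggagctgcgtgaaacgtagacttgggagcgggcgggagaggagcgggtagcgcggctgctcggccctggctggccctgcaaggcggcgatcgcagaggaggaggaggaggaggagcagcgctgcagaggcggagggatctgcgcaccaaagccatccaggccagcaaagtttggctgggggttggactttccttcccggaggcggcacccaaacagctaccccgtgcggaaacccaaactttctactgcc
Tgfbr2, chr9:116175314-116175613, minus strand: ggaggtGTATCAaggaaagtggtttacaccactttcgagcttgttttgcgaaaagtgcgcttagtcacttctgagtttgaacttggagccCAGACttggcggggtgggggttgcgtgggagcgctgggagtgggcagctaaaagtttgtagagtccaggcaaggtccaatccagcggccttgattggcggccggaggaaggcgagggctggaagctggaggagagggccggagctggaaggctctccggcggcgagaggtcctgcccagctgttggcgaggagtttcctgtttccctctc
Bmpr2, chr1:59764029-59764328, plus strand: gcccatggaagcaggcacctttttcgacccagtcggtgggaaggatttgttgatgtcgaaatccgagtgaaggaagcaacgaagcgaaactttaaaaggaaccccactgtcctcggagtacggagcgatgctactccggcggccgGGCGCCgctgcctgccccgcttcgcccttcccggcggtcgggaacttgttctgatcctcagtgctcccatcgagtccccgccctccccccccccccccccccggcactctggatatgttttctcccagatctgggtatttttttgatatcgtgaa
Id2, chr12:25096043-25096342, minus strand: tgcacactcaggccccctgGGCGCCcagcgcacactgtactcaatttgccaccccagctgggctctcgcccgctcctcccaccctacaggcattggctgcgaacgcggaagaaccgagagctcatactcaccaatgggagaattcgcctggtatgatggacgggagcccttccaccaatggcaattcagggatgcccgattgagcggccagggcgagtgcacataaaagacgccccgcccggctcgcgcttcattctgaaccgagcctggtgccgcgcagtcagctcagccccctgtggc
Among the 4 genes that fell, the windows of Inhba and Smad3 held none of these letters, that of Acvr1b held GGCGCC, and that of Tgfbr2 held CAGAC once and, near its 5′ end, GTATCA. The windows of Bmpr2 and Id2, which rose, held GGCGCC. On either strand, the letters TGATAC were in 2 of the 49 promoters, those of Tgfbr2 and Id3, against 5.46% of all 32851 promoters in the table. CAGAC was in 24 of 49, against 49.6%, and GGCGCC in 16 of 49, against 11.9%. The E-box CANNTG, searched on both strands like the others, was in 26 of 49, against 72.3%. Median GC content was 65.0% in the 49 promoters and 52.7% over all, and part of this table's genes have several promoters that overlap. A match describes these letters in this window, and no binding was measured.

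Of 3 corepressor genes, which encode proteins that hold SMAD complexes inactive or compete with their coactivators, none passed. Ski was at 9.12 in control and 8.85 in Six2 arrays, with overlapping groups (-0.27, 95% interval -0.53 to -0.01). Skil, itself a TGF-beta target, was at 6.94 and 7.04 (0.11, 95% interval -0.34 to 0.56), and Tgif1 at 10.46 and 10.27 (-0.19, 95% interval -0.39 to 0.01).

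Of the 2 target genes of the branch, 1 passed. Pmepa1, a TGF-beta target that also acts as a feedback inhibitor of SMAD signalling, was at 9.74, 9.70 and 9.75 in control arrays and at 10.28, 10.30 and 10.30 in Six2 arrays. Its groups were far apart for their spread, and the rise was 1.48-fold (0.57, SE 0.08, limma adjusted p = 0.00572). All 4 of its probe sets were higher, from 0.44 to 0.65. It was the 1 rise of the branch, opposite in direction to the ligand, receptor and SMAD genes that fell. Tgfbi, a matrix protein gene named for its induction by TGF-beta, was at 4.58 and 4.74 with overlapping groups and did not pass (0.16, 95% interval -0.14 to 0.46). Of its 17 probe sets, 8 were positive and 9 negative.

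Of the 19 BMP genes 2 passed, both among the 9 well expressed ones, a share near the 24.6% of all well expressed genes. The ligand genes Bmp2, Bmp4, Bmp6 and Bmp7 had group means between 2.42 and 4.50, with differences from -0.37 to 0.35, and none passed. Of these 4 genes, 3 were dim. The BMP antagonists Nog, Grem1 and Chrd were all dim, between 3.69 and 3.92 as group means, and none passed. Bmp4 had the lowest difference of the ligands, at 3.62, 3.44 and 3.01 in control arrays and 2.93, 2.83 and 3.19 in Six2 arrays, and among the 15 alternatives it passed with the mean of its probe sets alone (limma adjusted p = 0.0325).

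Of 4 BMP receptor genes 3 were well expressed, and of 4 SMAD genes 2. Bmpr1a, a type I receptor of BMPs, was at 9.63, 9.73 and 9.74 in control arrays and at 9.73, 9.62 and 9.73 in Six2 arrays. These groups overlapped almost fully, and the 95% interval of the gene's difference was -0.22 to 0.20. The 17 probe sets of Bmpr1a ranged from -1.22 to 0.20. Bmpr2, the BMP type II receptor, was at 8.31, 8.29 and 8.49 in control arrays and at 8.88, 8.78 and 8.82 in Six2 arrays. All 16 of its probe sets were higher, and the gene rose 1.38-fold (0.46, SE 0.09, limma adjusted p = 0.0195). Acvr1, the receptor ALK2, was at 7.56 and 7.71 and did not pass, and Bmpr1b was dim, at 2.90 and 3.28. The SMAD genes Smad1 (0.26, 95% interval -0.05 to 0.58) and Smad5 (0.12, 95% interval -0.09 to 0.33) did not pass. Neither did the dim Smad9 (-0.25, 95% interval -0.60 to 0.10) or the inhibitory Smad6, at 5.58 and 5.55 (-0.03, 95% interval -0.45 to 0.39).

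The 4 Id genes encode inhibitors of basic helix-loop-helix factors and 1 of them passed. Id2 was at 10.26, 10.28 and 10.28 in control arrays and at 10.68, 10.69 and 10.53 in Six2 arrays, a rise of 1.28-fold (0.36, SE 0.09, limma adjusted p = 0.0379). With the mean of its 4 probe sets the difference was 0.84 (limma adjusted p = 0.00142), and 1 dim probe set was at 2.18 while the other 3 lay between 0.36 and 0.45. Id1 was at 9.40, 9.34 and 9.36 in control arrays and at 9.01, 9.16 and 9.04 in Six2 arrays. Its groups did not overlap, and the difference of -0.30 (95% interval -0.51 to -0.09) did not pass (limma adjusted p = 0.0644). Id3 was at 8.33 and 8.23, and Id4 at 6.82 and 6.41 with a Six2 range from 5.97 to 6.92. Without Six2 replicate 2, the highest of these, Id4 passed as lower (-0.67, limma adjusted p = 0.0408), as it did with the mean of its probe sets (-0.74) and the brightest of them (-0.95). The call of Id2 was lost when any array other than Six2 replicate 3 was left out (limma adjusted p = 0.0870 to 0.113). That of Bmpr2 was lost in each of 4 fits, which left out control replicate 1, control replicate 2, Six2 replicate 1 or Six2 replicate 2 (0.43 to 0.49, limma adjusted p = 0.0510 to 0.0747).

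Of the genes that serve both branches, none passed. Smad4, the common partner SMAD, was at 9.76, 9.78 and 9.68 in control arrays and at 9.49, 9.51 and 9.33 in Six2 arrays. The groups were apart, and all 16 probe sets were lower (-0.30, 95% interval -0.51 to -0.08, limma adjusted p = 0.0760). Smad7, the inhibitory SMAD that both pathways induce, was at 7.88, 7.98 and 7.89 in control arrays and at 8.29, 8.29 and 8.13 in Six2 arrays. All 8 of its probe sets were higher, and its groups did not overlap either (0.32, 95% interval 0.10 to 0.54, limma adjusted p = 0.0605). With the mean of the probe sets, Smad4 passed as lower and Smad7 as higher.

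The ubiquitin ligase genes Smurf1 and Smurf2, whose products mark receptors and SMADs for degradation, differed by -0.03 (95% interval -0.22 to 0.16) and -0.24 (95% interval -0.44 to -0.04). Smurf2 had 20 of its 21 probe sets lower. Eng, the coreceptor endoglin, was at 4.46 and 4.09 (-0.37, 95% interval -0.72 to -0.03) and had 15 of 16 probe sets lower. It passed as lower with the mean of its probe sets (-0.53, limma adjusted p = 0.00582), when dim rows were dropped (-0.78, limma adjusted p = 0.00945) and without Six2 replicate 2 (-0.53, limma adjusted p = 0.0384), while the brightest probe set was at -0.06. Bambi, a decoy receptor, was at 4.38 and 4.15 (-0.23, 95% interval -0.78 to 0.32). Fstl1, a secreted follistatin relative, was dim, at 3.32 and 3.43. Groups that do not overlap were found in 21 of the 50 genes, against 35.8% of all genes, and 9 of these 21 did not pass. Such groups were more frequent among well expressed genes. They were found in 20 of the 31 well expressed genes of the list, against 4947 of all 8974 well expressed genes.

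The probe sets of a gene cover different parts of it. Of 613 probe sets, 20 passed over all rows (3.26%), against 2.80% of all 241576, and 17 of the 20 belonged to genes that passed. In 9 of the 12 genes that passed, every probe set had the sign of the gene. The exceptions were Tgfb3 and Tgfbr2, with 1 positive probe set each, whose means were 2.23 and 1.60 in control arrays, and Tgfbr3, with 2. A gene's value is the median of these same probe sets, and the genes were picked by it, so a shared sign was likely. Ltbp3, Smad4, Smad7, Tgif1, Id3 and Id4 did not pass, and all their probe sets also had one sign. The share over all genes is not given here, so the count is not taken as separate evidence for the calls. Among the genes that did not pass, 3 probe sets did. They were single probe sets of Bmpr1b (-0.96), Chrd (-1.31) and Ltbp2 (1.24), in genes of 17, 22 and 36 probe sets.

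**Figure D3:**
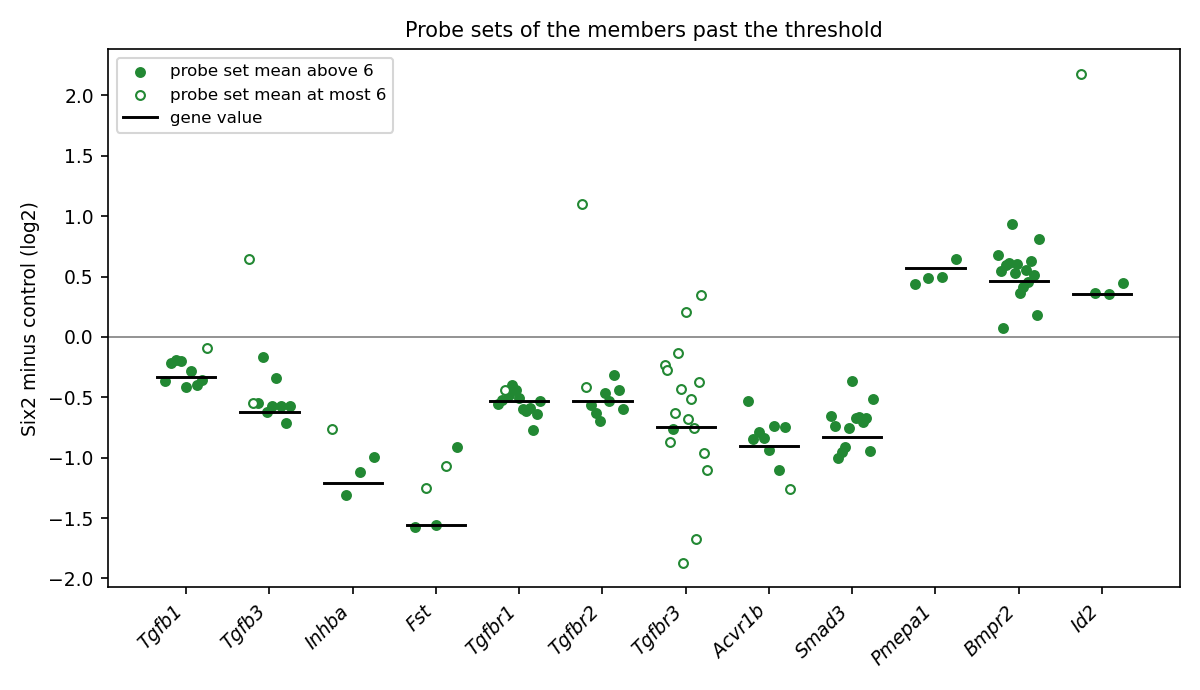
Six2 minus control difference on the log2 scale (y axis) of every probe set of the 12 genes that passed (x axis). Filled points have a mean above 6 over the arrays, open points at most 6, and black lines give the gene value. All 13 probe sets of Tgfbr1 and of Smad3 lie below 0, and the positive probe sets of Tgfb3 and Tgfbr2 are open points.

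Differences over all genes were uneven between chromosomes, and 3 of the 12 calls were lost when chromosome medians were subtracted. Each of these 3 calls was also lost in other alternatives. Among well expressed genes the median difference was 0.44 on chromosome 1, which carries Bmpr2, 0.22 on chromosome 12, which carries Id2 and Tgfb3, and -0.13 on chromosome 7, which carries Tgfb1. With these medians subtracted, Bmpr2 was at 0.026 (limma adjusted p = 0.892), Id2 at 0.14 (limma adjusted p = 0.356) and Tgfb1 at -0.20 (limma adjusted p = 0.172), and none of the 3 passed. The other 9 passed. Tgfb3 was at -0.84, and Smad3 and Tgfbr2, on chromosome 9 with a median of 0.12, were at -0.96 and -0.65, all larger falls than without the subtraction. Ltbp1, on chromosome 17 with a median of -0.26, was at 0.54 and passed as higher (limma adjusted p = 0.0154). Tgfbr3 lies under the level at which the subtraction was made and was left as it was.

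**Figure D4:**
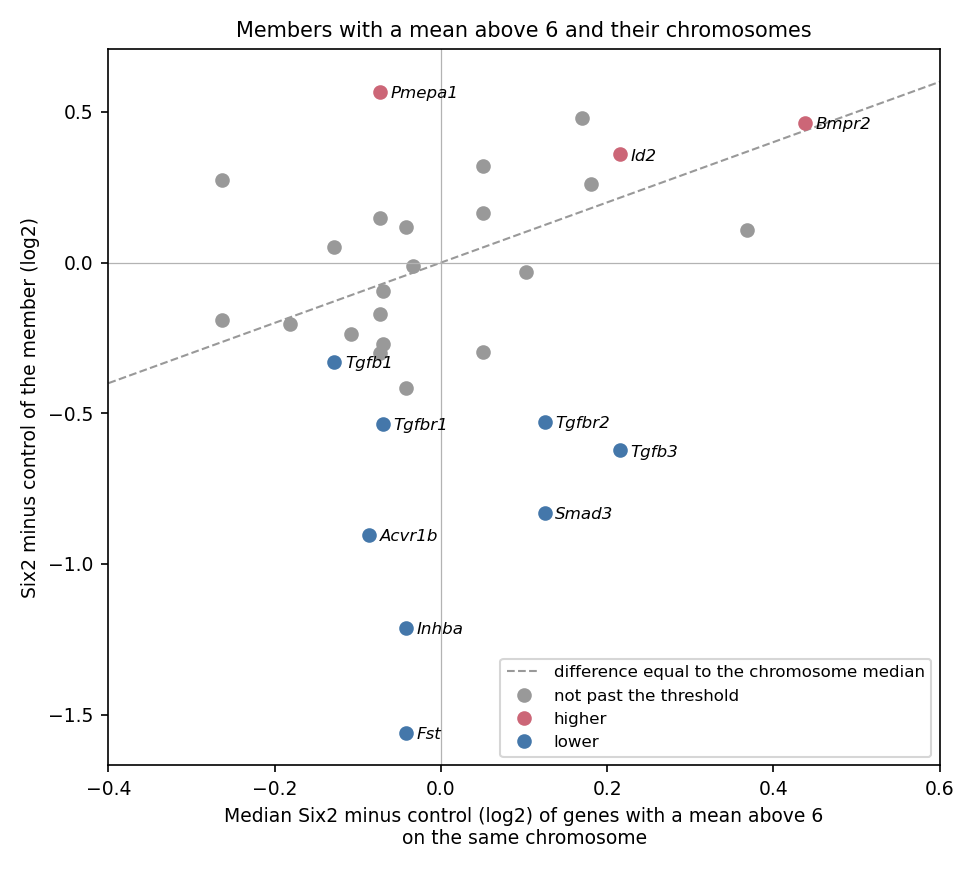
Six2 minus control difference on the log2 scale of the 31 genes with a mean above 6 (y axis) against the median difference of genes with a mean above 6 on the same chromosome (x axis), with the dashed line where both are equal. Bmpr2 lies close to the line, while Fst, Inhba, Smad3, Tgfb3 and Acvr1b lie more than 0.8 below it.

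Of 95 other genes of these pathways, 91 were measured, of which 4 rose, 9 fell and 78 did not pass. This share of 14.3% was near the 14.7% of all genes. Among 21 TGF-beta or BMP target genes, 4 fell and 0 rose. They were Ccn2, a matricellular growth factor (-1.11, SE 0.09), Snai1, a repressor of Cdh1 (-0.68, SE 0.11), Fn1, which encodes fibronectin (-0.62, SE 0.08), and the cell cycle inhibitor Cdkn2b (-0.51, SE 0.12). Of the 21 differences, 10 were positive and 11 negative, with a median of -0.04. Of the 11 well expressed targets 3 passed, against 24.6% of all well expressed genes. Gata2 (0.57), Junb (0.34), Cdkn1a (0.30) and Klf10 (0.28) were higher with groups apart, but did not pass. Of 20 extracellular regulators, Thbs1, an activator of latent TGF-beta (-1.02, SE 0.09), and the protease Htra1 (-0.58, SE 0.09) fell. Of 23 ligands 1 fell, the dim Amh (-0.95, SE 0.17), and of 6 receptors none passed. Of 21 intracellular mediators, 4 rose and 2 fell. Those that rose were Tgfbrap1 (0.69, SE 0.12), a receptor-associated protein, Tab2 (0.51, SE 0.10), an adaptor of the kinase TAK1, the deubiquitinase Usp15 (0.48, SE 0.10) and the SMAD4 ubiquitin ligase Trim33 (0.40, SE 0.08). The ubiquitin ligase gene Wwp1 (-0.56, SE 0.09) and Fkbp1a, whose product binds type I receptors (-0.45, SE 0.11), fell. Tgfbrap1 and Fn1 lie on chromosome 1 and Trim33 on chromosome 3, where the medians were 0.44 and 0.37. Tab2 and Usp15, which rose, and Ccn2 and Amh, which fell, lie on chromosome 10, with a median of 0.17. With chromosome medians subtracted, 3 other pathway genes were higher and 8 lower.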

How the data were processed

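Total RNA of 6 samples, 3 per group, was hybridised to arrays, with 6 ug of RNA per labelling, per the labels' protocols. The deposited values are log2 RMA values, and Affymetrix Power Tools was used, per the submitters' processing notes. RMA corrects background, equalises distributions and summarises probes. The number of arrays limits the precision. For tool versions, a probe set filter and the array's genome build, nothing is stated in the sources used here.

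Of 241576 rows, 213361 had 1 gene symbol, updated through RefSeq (GRCm38.p6). The gene value was the median of its rows. Groups were compared with limma 3.58.1 in R 4.3.3 (lmFit and eBayes, two-sided, Benjamini-Hochberg over 20848 genes, adjusted p under 0.05), without covariates and also per row, after a test on simulated data. Intervals are unadjusted 95% intervals of that fit. Of 95 further pathway genes, 91 were tested and the others are not analysed here.

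The members, branches, lists and tests were chosen with earlier results of these data known. All 50 members are named, those that passed with every array, and other pathway genes up to 6 per direction, with the remaining ones that passed added for completeness. Alternatives were the mean or brightest probe set, dim rows left out (30th percentile), quantile normalization, centring, a replicate block, leaving out each array, variance settings, chromosome medians subtracted and a threshold of 0.01.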

Additional observations from a re-analysis of the deposited data

How the results depend on the processing

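Counts of calls depended on the setting. No gene that passed changed sign in any of the 15 alternatives. These genes were picked by their difference in the same arrays, so a sign change was unlikely. Among members that did not pass, signs did change, in 6 alternatives for Bmp2 and in 4 each for Bmp7 and Bmpr1a. Of the 12 calls, 7 held in all alternatives (Inhba, Fst, Tgfb3, Tgfbr2, Acvr1b, Smad3 and Pmepa1). Of the 38 members that did not pass, 27 passed in none of the alternatives. Among the others, Fstl3 passed as higher, and Id1, Ltbp3, Smurf2 and Tgif1 as lower, in 1 or 2 alternatives each. Members higher numbered 3, and were 5 with the mean of probe sets, 6 with a variance trend and robust variance and 1 at an adjusted p under 0.01. Members lower numbered 9 and ranged from 7 to 13. With the replicate block there were 1 member higher and 7 lower, 1 other pathway gene higher, and 793 genes higher and 1035 lower over all. Same-numbered arrays did not deviate together (correlations of -0.054 to -0.006), so the numbers are not taken as pairs. Other pathway genes higher numbered 4, and were 8 with the mean of probe sets, 1 with the brightest probe set and 7 with a variance trend. Over all genes, 2311 were higher and 2547 lower with the mean of probe sets, 873 higher with the brightest probe set and 775 higher with chromosome medians subtracted. Leaving out 1 array gave 1 to 3 members higher and 8 to 10 lower, 1 to 3 other pathway genes higher and 7 to 8 lower, and 679 to 1078 genes higher and 886 to 1369 lower. Members higher were 1 in each of the fits that left out replicate 1 or 2 of either group. Six2 itself passed with the mean of probe sets (0.38), and in 2 settings that rest on its brightest probe set alone (1.19), namely that probe set and dim rows left out. The cause of these shifts was not tested. Fits that leave out 1 array also have fewer arrays. The median of all genes moved by less than 0.1 under every scaling. Of the 8365 dim genes 296 passed, and 0 of the 11 dim members did.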
